A study of Mus musculus with 2 samples.

Results

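The 10 genes described here belong to the BCL2 family, whose proteins decide at the mitochondrion whether a cell lives or dies. The rule that takes them uses their names and roles: the survival genes Bcl2, Bcl2l1, Mcl1, Bcl2a1b and Bcl2a1d, the effector genes Bax and Bak1, and the BH3-only genes Bcl2l11, Bid and Bbc3. All 10 were found among the 43346 mouse gene IDs of the deposited tables. The RNA came from primary cells isolated from bone marrow and labelled megakaryocyte. The source animals were male C57BL/6J mice, adults of 5 to 6 weeks, with no treatment or altered allele named. Total RNA (100 ng) was depleted of ribosomal RNA, and 2 libraries were sequenced, numbered 1 and 2 as the labels number their biological replicates. The labels name 1 donor for both libraries and do not state whether animals were pooled. There was 1 group and no second condition, so the comparisons are between genes within the libraries and between the libraries.

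As background, survival members of the family hold the effectors BAX and BAK in check, and BH3-only proteins relay stress signals by binding either side. Once freed or activated, BAX and BAK open the outer mitochondrial membrane, cytochrome c is released and caspases are switched on. BCL-XL, the main product of Bcl2l1, is known as a protein that helps to keep megakaryocytes and platelets alive by restraining BAK. MCL1 is known to be needed by neutrophils and stem cells, and the A1 proteins, encoded by the Bcl2a1 genes, are prominent in activated myeloid cells.

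The family is tied together by the BH3 domain, a short helix whose core is a leucine, 3 further residues, a glycine or alanine, and an aspartate. The core was searched for by translating the longest complete coding sequence of each member in GENCODE M21. It was found once in each of 8 members and in neither Bcl2a1b nor Bcl2a1d. The same pattern occurs in 23.8% of 21697 protein-coding genes, so a match is a description and not a test. The coding bases around it are shown, as they are the stretch that members from all 3 roles share. Capitals mark the codons of the leucine and of the last pair of residues, and positions are on mm10.
Bcl2 (chr1:106712575-106712610, minus strand): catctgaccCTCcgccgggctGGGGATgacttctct
Bcl2l1 (chr2:152829697-152829732, minus strand): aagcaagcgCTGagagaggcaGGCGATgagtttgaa
Mcl1 (chr3:95659427-95659462, plus strand): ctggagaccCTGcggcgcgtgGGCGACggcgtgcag
Bax (chr7:45465997-45466032, minus strand): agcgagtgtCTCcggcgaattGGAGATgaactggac
Bak1 (chr17:27022531-27022566, minus strand): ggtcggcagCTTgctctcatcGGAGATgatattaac
Bcl2l11 (chr2:128147141-128147176, plus strand): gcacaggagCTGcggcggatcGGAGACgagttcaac
Bid (chr6:120897289-120897324, minus strand): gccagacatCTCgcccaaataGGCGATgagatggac
Bbc3 (chr7:16313764-16313799, plus strand): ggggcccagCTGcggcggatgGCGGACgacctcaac
Each of these stretches lies within 1 coding exon. Bbc3 carries an alanine codon, GCG, where the other 7 carry a glycine codon.

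The deposited expected counts summed to 42703213 in library 1 and 50532821 in library 2. Levels are given in TPM, a measure of transcript number that is scaled per length and so allows genes to be compared. Nuclear protein-coding genes held 24.0% and 26.8% of the summed TPM, so TPM values here are low for their rank. The label was checked against 12 megakaryocyte markers, of which 11 lay under 1 TPM in both libraries. Gp5 and Gp6 had 0 counts in both, Pf4 had 0 and 3 counts, and Itga2b alone exceeded 1 TPM, at 3.26 and 4.89. In contrast, 10 TPM or more was reached in both libraries by all of 10 neutrophil markers, by 8 of 10 monocyte and macrophage markers and by 5 of 7 basophil, mast cell and eosinophil markers. The libraries are therefore called by their label only. In such bulk RNA, fewer cells of a type and less RNA per cell cannot be told apart.

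Among the survival genes, Mcl1 stood far above the rest. Mcl1 (ENSMUSG00000038612, chromosome 3, 95658788 to 95663176), which encodes a short-lived survival protein, stood at 79.5 TPM in library 1 and 92.4 TPM in library 2, or 85.9 ± 9.14 TPM (SD, n = 2, as for every mean below). These levels rest on 25968 and 34211 counts and rank 441st and 410th of 21461 nuclear protein-coding genes. No other member reached 25 TPM in either library.

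Bcl2l1 (ENSMUSG00000007659, chromosome 2, 152780668 to 152831728), the BCL-XL gene, stood at 3.21 and 2.53 TPM, a mean of 2.87 ± 0.481 TPM. Bcl2 (ENSMUSG00000057329, chromosome 1, 106538178 to 106714274), the founding member of the family, stood at 2.95 and 2.15 TPM, a mean of 2.55 ± 0.566 TPM. Both genes were higher in library 1, and their ranges over the libraries overlapped, although Bcl2l1 lay above Bcl2 within each library. The Mcl1 level was 24.8 and 36.5 times that of Bcl2l1 and 26.9 and 43.0 times that of Bcl2 in libraries 1 and 2.

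The transcripts behind the survival genes differed in how sure they were. All reads of Mcl1 were assigned to Mcl1-201, the transcript of 331 codons, and none to Mcl1-202, which has 285. Bcl2 was split between 2 coding transcripts in nearly the same proportion in both libraries. Bcl2-201, of 2 exons and 236 codons, held 67.2% and 66.9% of the gene's TPM. Bcl2-202, a single-exon model of 199 codons, held 32.8% and 33.1%. By expected counts, which are not per length, Bcl2-201 took 84.5% and 84.4% and Bcl2-202 took 15.5% and 15.6%.

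For Bcl2l1 the leading transcript by TPM differed between the libraries, but by expected counts it was Bcl2l1-201 in both. Bcl2l1-201, which encodes the 233-codon form, held 42.6% and 35.0% of the gene's TPM in libraries 1 and 2. For Bcl2l1-209, which is noncoding, the share was 13.1% and 50.3%, from 31.1 and 105 counts. Bcl2l1-208, whose model is incomplete, held 31.9% in library 1 on 25.6 counts and was at 0 in library 2. By counts, Bcl2l1-201 took 69.6% and 56.8% and Bcl2l1-209 took 7.2% and 27.2%. In library 2 the authors' deposited TPM intervals of the pair overlapped, at 0.635 to 0.979 and 0.954 to 1.68. With complete coding transcripts alone, Bcl2l1 stood at 1.77 and 0.89 TPM. This was 0.6 and 0.414 times Bcl2, against 1.09 and 1.18 times at the gene level, and Mcl1 was 44.9 and 104 times Bcl2l1. Coding models with an incomplete end, left out of the complete coding level, held a further 31.9% and 14.7% of the TPM of Bcl2l1.

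**Figure D1:**
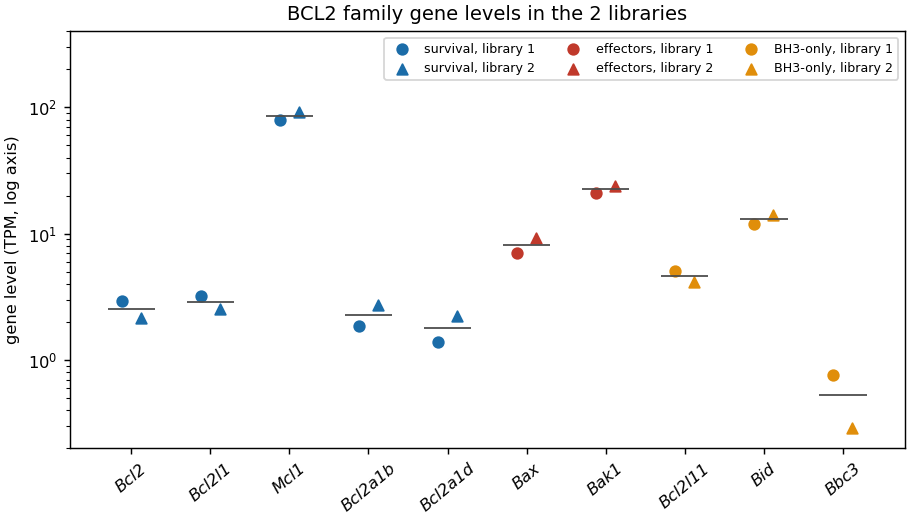
Level of each of the 10 genes in TPM on a log axis, with circles for library 1, triangles for library 2, a horizontal line at the mean of both, and colours for the role. Mcl1 stands at 79.5 and 92.4 TPM and no other gene reaches 25 TPM, while Bbc3 is lowest at 0.76 and 0.29 TPM.

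The A1 genes Bcl2a1b and Bcl2a1d (ENSMUSG00000089929 and ENSMUSG00000099974) lie on chromosome 9 at 89199209 to 89207827 and 88723285 to 88731914. They are near-identical copies, with another copy, Bcl2a1a, between them and a shorter one, Bcl2a1c, farther along the chromosome. The coding sequences of Bcl2a1b and Bcl2a1d are 516 bases each and are 98.8% identical, with 6 differing bases. Bcl2a1a differs from Bcl2a1b at 11 bases (97.9% identity) and from Bcl2a1d at 7 (98.6%). The first 60 coding bases are shown because they hold the 5′ differences by which reads of the copies can be told apart. Capitals mark every base that differs between Bcl2a1b and either of the other copies.
Bcl2a1b (chr9:89199360-89199419, plus strand): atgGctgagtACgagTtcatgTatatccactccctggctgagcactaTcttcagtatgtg
Bcl2a1d (chr9:88731660-88731719, minus strand): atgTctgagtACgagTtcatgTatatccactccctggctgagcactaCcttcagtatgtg
Bcl2a1a (chr9:88957051-88957110, plus strand): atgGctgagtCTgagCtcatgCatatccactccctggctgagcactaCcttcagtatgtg
Counted from the A of the start codon, Bcl2a1d differs from Bcl2a1b by G4T, T48C, A94C, G312A, C381G and T490A. The longest run of bases shared by the transcripts of Bcl2a1b and Bcl2a1d is 217. Reads within such a run were divided between copies by estimation, which makes each copy's own level uncertain.

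Both A1 members were low and were higher in library 2. Bcl2a1b stood at 1.86 and 2.71 TPM, a mean of 2.29 ± 0.601 TPM, on 110 and 179 counts. Bcl2a1d stood at 1.4 and 2.21 TPM, a mean of 1.8 ± 0.573 TPM, on 89.7 and 158 counts. The ranges of the pair overlapped, although Bcl2a1b lay above Bcl2a1d within each library. Bcl2a1a, at 0.9 and 0.38 TPM, went the opposite way, and Bcl2a1c had 0 counts in both libraries. Summed over the 4 copies, which depends little on how reads were divided among them, the A1 genes had 254 and 363 counts and stood at 4.16 and 5.3 TPM, a mean of 4.73 ± 0.806 TPM.

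Of the effectors, Bak1 was the higher at the gene level. Bak1 (ENSMUSG00000057789, chromosome 17, 27019810 to 27029009), which encodes the pore-forming BAK that resides on mitochondria, stood at 20.96 and 23.95 TPM, a mean of 22.5 ± 2.11 TPM. Bax (ENSMUSG00000003873, chromosome 7, 45461697 to 45466898), whose protein moves to mitochondria from the cytosol, stood at 6.99 and 9.17 TPM, a mean of 8.08 ± 1.54 TPM. The ranges did not overlap, and the Bak1 level was 3.0 and 2.61 times that of Bax.

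The transcript with the highest share of Bak1 in both libraries does not encode full-length BAK. Bak1-201, annotated as a target of nonsense-mediated decay (the pathway that destroys messages with an early stop codon), held 49.7% and 53.6% of the gene's TPM. Bak1-202, the coding transcript of 209 codons, held 18.8% and 10.7%. A 416-base transcript with no entry in M21, ENSMUST00000133448, held the remaining 31.6% and 35.7%, on 129 and 178 counts, its effective length (the positions a fragment can start from) being 195 and 183 bases. By expected counts, which are not per length, Bak1-201 took 65.0% and 75.9% and Bak1-202 took 30.4% and 18.8%. The order of the pair was the same in both libraries on either scale.

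Bak1-201 has 7 exons and Bak1-202 has 6. The added exon is the fifth, of 20 bases (chr17:27021663-27021682, minus strand), which is no multiple of 3 and leaves a reading frame of 151 codons, which still holds the BH3 core shown above. It is shown in capitals with 12 bases of the exons on either side, as the piece that separates the decay form from the coding form.
Bak1-201, exon 5: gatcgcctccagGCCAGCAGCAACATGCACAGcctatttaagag
The transcripts share 1954 bases. Bak1-202 has 433 bases of its own, nearly all in a first exon of 599 bases against 168 in Bak1-201. The estimated shares can thus rest on reads across the 20-base exon or on reads in the longer first exon, and which of these set them was not tested.

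Taking complete coding transcripts alone, Bak1 stood at 3.93 and 2.57 TPM, a mean of 3.25 ± 0.962 TPM. The authors' deposited interval for Bak1-202, of unstated level, ran from 3.42 to 4.45 TPM in library 1 and from 2.2 to 2.95 TPM in library 2. Bax had 1 listed transcript, coding, so it could only keep its 6.99 and 9.17 TPM. M21 also holds Bax models with an incomplete end or a retained intron. These were not listed, so no reads could be assigned to them, and the 2 genes are not on equal terms here. At this level Bak1 was 0.562 and 0.28 times Bax, the reverse of the gene-level order. The reversal depends on the transcript without an M21 entry: with it added, Bak1 without Bak1-201 stood at 10.6 and 11.1 TPM, above Bax in both libraries. Complete coding transcripts held under 20% of the TPM in both libraries for Bak1 and for 93 of 3619 nuclear protein-coding genes at 10 TPM or more (2.57%), whose median coding share was 94.4% and 95.1%. The cut of 20% lies just above the 18.8% of Bak1 in library 1. Transcripts without an M21 entry were counted as not coding, and for Bak1 such a transcript held 31.6% and 35.7%, so this statement depends on it too. A transcript of the decay class led in both libraries for Bak1 and for 51 of these genes in all (1.41%).

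**Figure D2:**
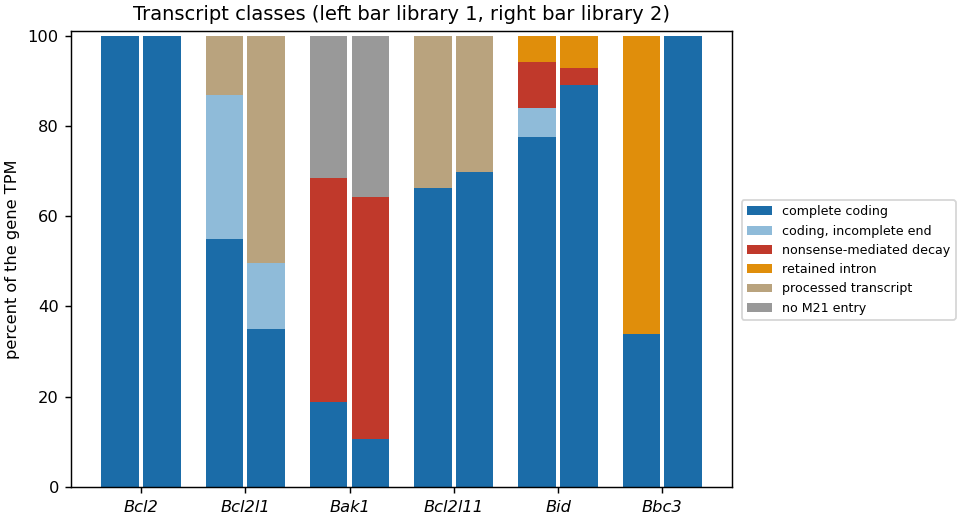
Percent of each gene's TPM held by classes of transcript, stacked, for the 6 genes with several transcripts detected, library 1 on the left and library 2 on the right of each pair. For Bak1 the complete coding class holds 18.8% and 10.7%, and the nonsense-mediated decay class 49.7% and 53.6%.

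Among the BH3-only genes, Bid was the highest and Bbc3 the lowest. Bid (ENSMUSG00000004446, chromosome 6, 120891930 to 120916853) encodes the protein that caspase-8 cleaves to pass a death receptor signal to mitochondria. It stood at 11.95 and 14.2 TPM, a mean of 13.1 ± 1.57 TPM, on 2141 and 2978 counts. The coding transcript Bid-201 held 77.6% and 89.0% of it. Bid-204, of the decay class with the same 195 codons, held 10.2% and 3.78%.

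Bcl2l11 (ENSMUSG00000027381, chromosome 2, 128126038 to 128162547), the BIM gene, encodes the BH3-only protein best known for removing blood cells deprived of growth factors. It stood at 5.02 and 4.15 TPM, a mean of 4.58 ± 0.615 TPM, on 1490 and 1494 counts. Its coding transcripts are known by the length of their product. The extra-long form, Bcl2l11-205 with 196 codons, led with 36.3% and 44.6% of the TPM, and the long form, Bcl2l11-203 with 140 codons, held 9.37% and 9.08%. The short forms of 110 codons held 4.59% in library 1 (Bcl2l11-201) and 0 in library 2, and Bcl2l11-204 was at 0 in both.

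Not all Bcl2l11 RNA could encode a BH3 domain. Bcl2l11-202, a coding transcript of 91 codons whose coding sequence lacks the BH3 core, held 15.9% and 16.2% of the TPM. The noncoding Bcl2l11-208 held 33.8% and 25.6%. Transcripts whose coding sequence holds the BH3 core made up 50.3% and 53.7% of Bcl2l11, or 2.52 and 2.23 TPM.

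Bbc3 (ENSMUSG00000002083, chromosome 7, 16308393 to 16318205) encodes PUMA, a BH3-only protein induced by p53. It was the only member under 1 TPM in both libraries, at 0.76 and 0.29 TPM, a mean of 0.525 ± 0.332 TPM, on 74 and 53 counts. Its TPM differed more between the libraries than its counts did, because the retained-intron transcript Bbc3-203, 881 bases long, took 66.0% of the TPM in library 1 (33.0 counts) and 0 in library 2. The coding Bbc3-201 stood at 0.26 and 0.29 TPM. At these counts the transcript shares of Bbc3 are not resolved.

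A level of 1 TPM in both libraries was reached by 9 of the 10 members, against 42.4% of 21461 nuclear protein-coding genes. A level of 5 TPM was reached by 4 members, Mcl1, Bak1, Bid and Bax, against 26.6% of those genes, and 10 TPM by the first 3 of these, against 16.9%. The median over the members was 4.12 and 3.43 TPM, and over all nuclear protein-coding genes 0.28 and 0.27 TPM. By mean TPM the order was Mcl1, Bak1, Bid, Bax, Bcl2l11, Bcl2l1, Bcl2, Bcl2a1b, Bcl2a1d and Bbc3. Of the 9 pairs of neighbours in this order, 6 had ranges that did not overlap. The 3 that overlapped run from Bcl2l1 through Bcl2 and Bcl2a1b to Bcl2a1d, so neighbours among these 4 genes are not resolved by range. The ranges of Bcl2l1 and Bcl2a1d did not overlap. Within each library Bcl2l1 lay above Bcl2 and Bcl2a1b above Bcl2a1d, while Bcl2 and Bcl2a1b changed order. With complete coding transcripts alone, 5 of the 9 pairs of neighbours overlapped. On that level Bcl2l1, at 1.77 and 0.89 TPM, lay below Bcl2 in both libraries and below Bcl2a1d in library 2.

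Summed by role, the survival members held 66.1% and 66.4% of the members' TPM, the effectors 20.8% and 21.5%, and the BH3-only members 13.2% and 12.1%. Mcl1 alone held 59.1% and 60.1%, and 89.4% and 90.6% of the survival sum. With complete coding transcripts alone the survival share was 78.6% and 78.5%, the effector share 9.82% and 9.18%, and the BH3-only share 11.6% and 12.4%. On that level the effectors, at 10.9 and 11.7 TPM, no longer exceeded the BH3-only members, at 12.9 and 15.8 TPM. This too depends on the Bak1 transcript without an M21 entry, since the effectors with only Bak1-201 left out summed to 17.5 and 20.3 TPM. The order of these roles at the gene level holds for the members alone. The 5 other BH3-only genes of the family, left out of the sums, held 17.2 and 16.7 TPM, and the effector relative Bok held 0. With these added, the BH3-only genes exceeded the effectors at the gene level in both libraries. RNA levels give no measure of the proteins, several of which are controlled by degradation or cleavage.

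**Figure D3:**
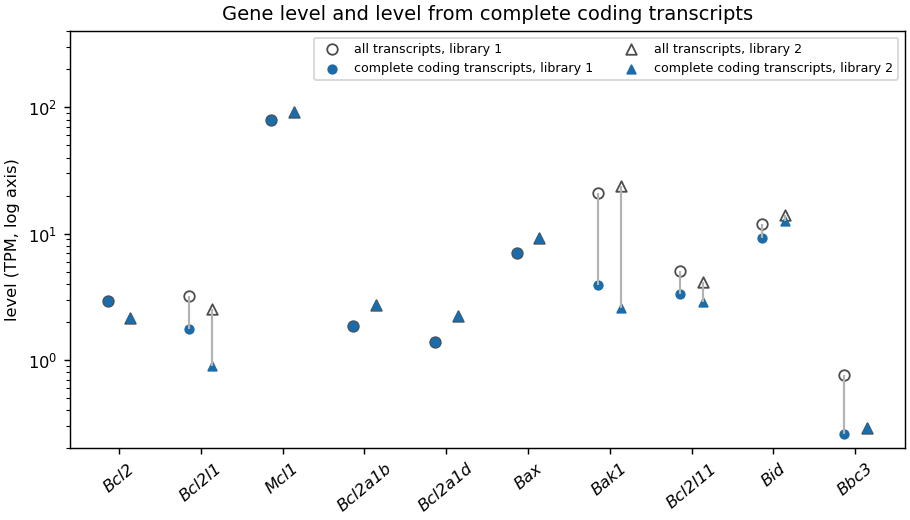
Level of each gene in TPM on a log axis from all transcripts (open symbols) and from complete coding transcripts (filled), circles for library 1 and triangles for library 2. The grey line shows the gap, which is longest for Bak1, from 20.96 to 3.93 TPM in library 1 and from 23.95 to 2.57 TPM in library 2.

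Of 10 other genes of the family, 4 reached 1 TPM in both libraries. Bad, a BH3-only gene whose protein is held back by growth factor signalling, stood highest at 9.32 ± 2.0 TPM. The p53-induced Pmaip1, the NOXA gene, stood at 4.78 ± 1.1 TPM, Bmf at 2.79 ± 0.53 TPM and the survival gene Bcl2l2 at 1.38 ± 0.24 TPM. Bcl2a1a followed at 0.64 ± 0.368 TPM. Bik had 0 and 5 counts. Bcl2l10, Bcl2a1c, the effector relative Bok and Hrk had 0 counts in both libraries, where a limit of 3 counts allows Bok up to 0.0432 and 0.0386 TPM and Hrk up to 0.0107 and 0.00947 TPM. The authors' deposited upper bounds, of unstated level, were higher, at 0.131 and 0.119 TPM for Bok and 0.0719 and 0.0652 TPM for Hrk. Bax and Bak1 were therefore the detected effector genes, and of the BH3-only genes Bid, Bad, Pmaip1, Bcl2l11 and Bmf exceeded 1 TPM in both libraries.

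Related genes with other main roles included the mitophagy receptor gene Bnip3l at 42.7 ± 4.56 TPM, the autophagy gene Becn1 at 38.9 ± 9.8 TPM and Bnip3 at 4.62 ± 1.93 TPM; 5 of 7 on that list reached 1 TPM in both libraries. Each of the 5 mitochondrial partner genes exceeded 10 TPM in both libraries. Vdac3 stood at 74.6 ± 11.3 TPM and Vdac2, whose channel protein binds BAK, at 56.1 and 73.0 TPM. Tmbim6, named for inhibiting BAX, stood at 46.5 ± 1.6 TPM.

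Downstream, all 6 apoptosome and caspase genes reached 1 TPM in both libraries. Cycs, the cytochrome c gene, stood at 25.8 ± 4.11 TPM and the apoptosome scaffold Apaf1 at 18.9 ± 1.89 TPM. The 5 genes of the inhibitor of apoptosis proteins and their antagonists also did, with Birc3 at 33.7 ± 2.46, Xiap, which blocks caspases, at 18.7 ± 0.516 and Birc2 at 9.74 ± 0.728 TPM. In the death receptor arm, which reaches the family through Bid, 5 of 7 genes did. Casp8 stood at 41.2 ± 7.81 TPM, its inhibitor Cflar at 32.3 ± 0.339 and the receptor gene Tnfrsf1a at 27.0 ± 2.88 TPM.

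Genes acting upstream were also detected. The MCL1 ubiquitin ligase gene Huwe1 stood at 15.8 ± 1.49 TPM, the deubiquitinase gene Usp9x at 27.9 ± 2.84 and Fbxw7 at 5.02 ± 0.148 TPM. Of 6 genes that induce death genes or, like Mdm2, belong to the p53 circuit, 4 reached 1 TPM in both libraries. Mdm2, whose protein restrains p53, was highest at 25.4 ± 4.91 TPM, with the stress factor gene Ddit3 at 13.1 ± 1.23 and Foxo3, which drives BIM and PUMA, at 6.82 ± 0.0212 TPM. Over all 49 of these other pathway genes, 37 reached 1 TPM in both libraries and the median was 6.82 TPM.

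The libraries were then compared with each other, with counts scaled by TMM and a two-sided exact binomial test adjusted over 14283 genes by the Benjamini-Hochberg method. With 1 library on each side, the test holds counting error only and compares these libraries, not conditions. It called 9 of the 10 members, 5 higher in library 2 and 4 higher in library 1, against 65.1% of all genes tested. Higher in library 2 were 32.9% of all genes and higher in library 1 32.2%. No member reached a 2-fold ratio, which 13.8% of all genes did with a call. With an assumed biological coefficient of variation (BCV) of 0.1 in edgeR's exact test, none of the members passed adjustment, 3 had an unadjusted p under 0.05, and 17.5% of all genes were called. The common BCV that edgeR estimated between these libraries was 0.344, above the assumed value, so these calls rest on a smaller spread than the libraries show.

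Bcl2 was higher in library 1, with 1639 and 1350 counts (log2 ratio of library 2 over library 1 -0.52, 95% exact interval -0.63 to -0.42, adjusted p = 1.1e-21). Bcl2l1 was also higher in library 1, with 432 and 388 counts (log2 ratio -0.40, interval -0.60 to -0.19, exact binomial adjusted p = 0.00023). So were Bcl2l11, at a log2 ratio of -0.24, and Bbc3, at -0.72 with a wide interval from -1.26 to -0.19. In the opposite direction, Mcl1 had a log2 ratio of 0.16 (interval 0.13 to 0.18, exact binomial adjusted p = 1.3e-38), Bax 0.31 and Bid 0.24. Bcl2a1b and Bcl2a1d were at 0.46 and 0.57, again with their shared reads in mind. Bak1 did not pass, with a log2 ratio of 0.01 and an interval from -0.06 to 0.09 (exact binomial adjusted p = 0.76). The median over the members was 0.09 and over all genes tested 0.00, and the quartiles of all genes were -0.26 and 0.22.

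By the same exact binomial test, markers of other cells also differed between the libraries. That test called 65.1% of all genes, 32.2% higher in library 1 and 32.9% higher in library 2. Of 8 erythroid markers 7 passed, all higher in library 1, with a summed level of 113 TPM in library 1 and 57.1 TPM in library 2 and none at 0. Of the 6 lymphoid markers tested, 4 were higher in library 1 and 1 in library 2, with sums over all 8 of 21.6 and 16.1 TPM. Of 10 neutrophil markers 9 were higher in library 1 and 1 in library 2, with sums of 14458 and 13718 TPM and none at 0. Of 10 monocyte and macrophage markers 7 were higher in library 2 and 2 in library 1, with sums of 7781 and 10174 TPM and none at 0. Of 7 basophil, mast cell and eosinophil markers 3 were higher in library 2 and 2 in library 1, with sums of 273 and 299 TPM, and the megakaryocyte sums were 3.52 and 5.53 TPM. At the assumed BCV of 0.1, 5 erythroid, 2 lymphoid and 2 basophil, mast cell and eosinophil markers passed adjustment, against 17.5% of all genes. Of the remaining lists, 1 monocyte and macrophage, 1 megakaryocyte and 0 neutrophil markers passed. The megakaryocyte sums rest mostly on Itga2b, at 3.26 and 4.89 TPM, and 9 of the 12 markers had 0 counts in library 1 against 3 in library 2. Of the 4 tested, Itga2b and Gp1bb (0 and 34.5 counts) were higher in library 2, and Tubb1 and Vwf were lower. The part of these marker differences in the ratios of Bcl2, Bcl2l1, Mcl1 and the other members was not tested.

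**Figure D4:**
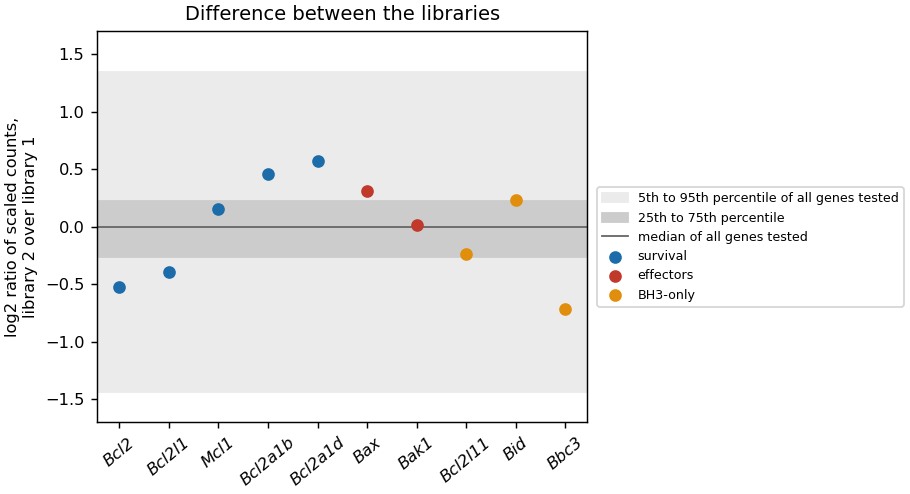
Log2 ratio of scaled counts, library 2 over library 1, for each of the 10 genes, coloured by role, with grey bands for the 5th to 95th and 25th to 75th percentiles and a line for the median of 14283 genes. All 10 points lie inside the wider band, from -0.72 for Bbc3 to 0.57 for Bcl2a1d.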

How the data were processed

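Total RNA from 2 libraries of 1 group was analysed. The authors' deposited gene and transcript tables rest on mm10 and GENCODE M4, per a text file the authors deposited beside the tables; aligner and quantifier: not given in the sources used here. Their deposited expected counts are estimated reads, not normalized, and were rounded for tests. The deposited TPM values are scaled per length over all rows of a table, and transcript shares are the percent of gene TPM that the authors deposited. Symbols, coordinates, transcript types and sequences came from GENCODE M21 on the same build: 42462 of 43346 mouse IDs and 35 of 36 member transcripts matched, 32 of these with an unchanged length. Complete coding transcripts are those typed protein-coding in M21 with no missing end. Between-library tests took genes whose counts averaged at least 10. TMM factors came from edgeR 4.0.16 and, as an alternative, size factors from DESeq2 1.42.0, in R 4.3.3. Exact binomial tests used scipy 1.17.1, with 0.5 added to counts for log2 ratios. They were tested on simulated counts that held counting error only, as the test assumes. That is no check of the test at the wider spread between these libraries. No edgeR quasi-likelihood fit was possible with 1 library on each side. All 10 members are named, all 10 other family genes, and the 3 highest genes of each other list, apart from genes not reported here; transcripts are named when leading or at 10% in both libraries, and Bid-204, Bbc3-203, Bcl2l1-208, Mcl1-202, Bcl2l11-201, Bcl2l11-203 and Bcl2l11-204 were added after their values were seen. The members and lists were chosen with earlier results of these data known. PCR copies cannot be told from separate molecules here, so limits and intervals hold counting error and nothing else. For an effective length of 1000 bases, 1 TPM stood for 100.2 counts (library 1) and 114 (library 2).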

Additional observations from a re-analysis of the deposited data

How the results depend on the processing

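The survival share of the members' TPM (66.2% in the mean) was 80.6% by expected counts, 65.2% without Bcl2a1b and Bcl2a1d and 78.5% with complete coding transcripts, an alternative chosen after seeing the data. The effector share (21.2%) was then 9.11%, 21.8% and 9.5%, and the BH3-only share (12.6%) was 10.3% by counts. With 1 library left out the shares ran from 66.1% to 66.4%, from 20.8% to 21.5% and from 12.1% to 13.2%. At 5 TPM 4 members and 5703 of all nuclear protein-coding genes were detected, and at 10 TPM 3 and 3619, against 9 and 9100 at 1 TPM. TPM rescaled to nuclear protein-coding genes raised all 10 levels, to 338 for Mcl1 and 2.12 for Bbc3. Between the libraries, an assumed BCV of 0.1 (exact test, edgeR) called 0 members, with adjusted p from 0.073 to 1.0, and 2499 genes in place of 9298. The log2 ratio of Bak1 was -0.0066 when scaled by the total of nuclear protein-coding genes, with no call on either scaling. With a mean count of 100 or more required, 8 members were called, since Bbc3 was then not tested. The other scalings and filters left the members' directions and calls as they were. No paired analysis was possible because there is 1 group.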
